A study of Rattus norvegicus with 8 samples.

Results

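The arrays described here are the 2 walked and the 3 cage control arrays of a study of rat soleus, 5 of its 8 arrays, chosen by their sample titles. All rats were female, and each array held RNA pooled from the soleus of 8 to 10 different rats, so no single animal was measured. Control rats had 12 h of spontaneous cage activity. Walked rats had 12 h of hindlimb unloading, in which the hind legs bear no weight, and then 2 h of treadmill walking, given as 30 min walks alternating with 30 min of cage activity over 4 h. The remaining 3 arrays, from rats unloaded for 12 h and not walked, are not compared here. They entered the estimate of spread between pools. They also entered the scaling, the signal floor, the brightness filter and the choice of each gene's brightest probe set, all described below. The labels give neither strain nor age. Walked pools differed from control pools by the unloading, the walking and the 4 h of the walking period at once, and these cannot be told apart in this comparison.

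The soleus is a postural calf muscle, made in the rat mostly of slow, oxidative fibres, that carries body weight whenever the animal stands. Within hours of unloading it begins to lose protein through the ubiquitin-proteasome system. Renewed contraction is a strong stimulus of its own: it raises calcium, cAMP and mechanical strain in the fibre, switches on immediate early transcription factors within minutes to hours, and in muscle not used to it also induces heat shock proteins and other stress genes. The comparison with cage controls asks how far muscle stood from the ambulatory state after a short bout of reloading.

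On 1-colour Affymetrix arrays, which measure transcripts by sets of short probes, 5244 of 8740 probe sets were bright enough to test. All values below are MAS5 signals, the array maker's linear intensity per probe set, as deposited, and a fold change is a difference of log2 signal, walked minus control. A change was called where limma's p, adjusted by Benjamini-Hochberg over the 5244 probe sets, was under 0.05. Median signals ran from 37.1 to 42.4 over the 5 arrays. Arrays correlated across probe sets at r of 0.949 to 0.961 within control, 0.963 between the walked pools and 0.913 to 0.936 between the groups. Control pool 3 correlated least with the walked pools, at 0.915 and 0.913, against 0.933 to 0.936 for control pools 1 and 2. It read lower than the other control pools for some genes, among them Cd36, Trib3, Hk2 and Idh1. The p-values measure the spread between pools, and with 3 against 2 pools an exact permutation test of a single gene could not go below 0.1.

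Of 9 markers of slow muscle fibre 6 were tested, and their summed signal was 20592 to 23104 in control and 28196 to 31007 in walked pools. Of these 6 markers 3 were called, all rises, and 1, Tpm3, lay below 0. The calls turned with the scaling. After quantile normalization none was called, and their median log2 fold change was 0.23 against 0.53. Whether more slow fibre or more RNA per fibre underlies such a sum cannot be told apart in whole muscle. The groups' summed signals did not overlap either for markers of Schwann cells and nerve (1549.8 to 1770.2 in control and 1305 to 1429 in walked pools, 6 of 12 tested), macrophages and leukocytes (882 to 959.8 in control and 788 to 840.0 in walked pools, 7 of 15), red cells (6179 to 7412 in control and 4373 to 6096 in walked pools, 4 of 6), satellite cells (127 to 133 in control and 86.4 to 105 in walked pools, 2 of 8) and mast cells (131 to 175 in control and 181 to 185 in walked pools, 2 of 8). Of the 6 Schwann markers tested only Cnp was called, a fall, with 2 markers above 0 in log2 fold change and 4 below. Of the 7 leukocyte markers tested only Cd74 was called, a fall, with 3 above 0 and 4 below. Of the red cell, satellite cell and mast cell markers none was called. The groups overlapped for smooth muscle and pericyte markers (4114 to 4847 in control and 4651 to 5783 in walked pools, 6 of 9), endothelial markers (388 to 460.5 in control and 365 to 419 in walked pools, 4 of 11), adipocyte markers (1403 to 1745 in control and 1356 to 1751 in walked pools, 4 of 9) and fibroblast markers (6883 to 9957 in control and 7379.7 to 7443 in walked pools, 9 of 10), although of the last Dcn rose and Col1a2 and Thy1 fell. No neutrophil marker passed the brightness filter, of 3 on the array. Lack of overlap was common, as over all tested probe sets 15.3% lay wholly above control and 27.8% wholly below. The part of these cells in the results below was not tested.

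After unloading and walking, 476 of the 5244 probe sets differed from control, which is 9.08%. Of these, 234 rose (4.46%) and 242 fell (4.61%), and changes of at least 2-fold were more often rises, 139 against 74. Taking the brightest probe set of each gene, 264 of 3154 genes differed (8.37%), 118 upward (3.74%) and 146 downward (4.63%). Against these shares the counts of each gene group are read below, with the groups chosen when earlier results of these data were known. By their most changed probe set, the largest rises were of Nr4a3, Tfrc, Map3k12, Eif4a2 and Ndufs1, and the largest falls of Plpp3, G0s2, Scarb1, Dusp6 and Gpr161. The brightness filter was a mean signal of 25.8 over all 8 arrays. Every control signal of Nr4a3, Tfrc and Map3k12 on these probe sets was under it. So was every walked signal of Plpp3, Scarb1, Dusp6 and Gpr161. These probe sets passed the filter only through their other arrays.

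The 2 walked arrays lay above all 3 control arrays for 801 probe sets (15.3%) and below them for 1456 (27.8%), which became 811 and 1446 on the rescaled signals, and every called probe set was among the 801 or the 1456. Lack of overlap, where given below for a called gene, is therefore no further support for its call. The median log2 fold change was -0.11 both over probe sets and over genes, and it was -0.06 over probe sets after quantile normalization. Counts leaned on single pools: 258 probe sets were called without control pool 2, 297 without control pool 3, 145 without walked pool 1 and 104 without walked pool 2. A test against a minimum change of 1.5-fold called 43 probe sets, 40 upward and 3 downward.

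**Figure D1:**
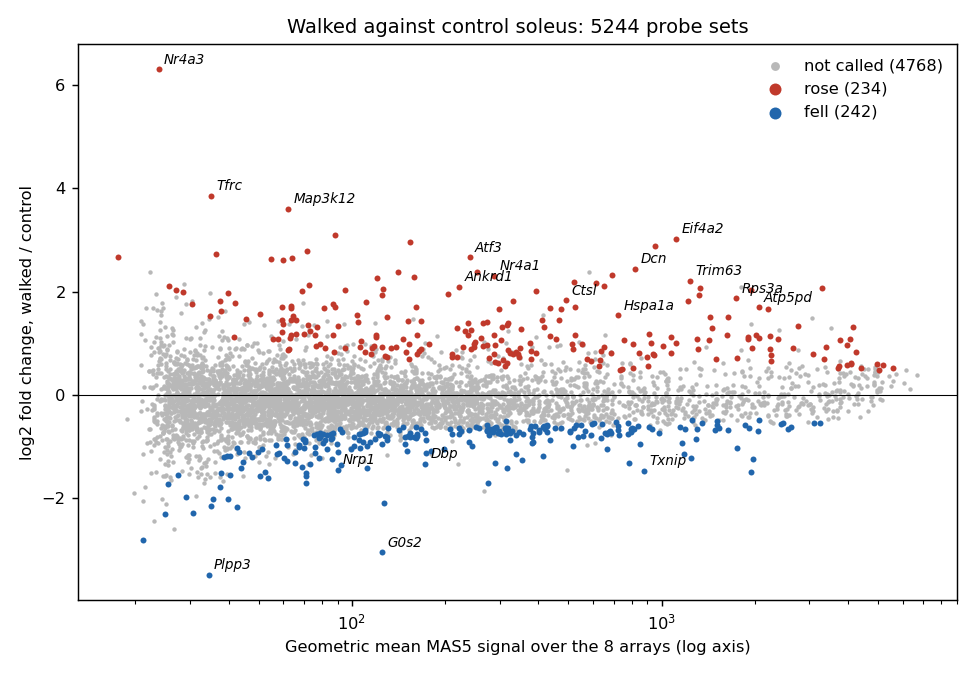
Each point is 1 of the 5244 tested probe sets, with its geometric mean MAS5 signal over the 8 arrays on a horizontal log axis and its log2 fold change, walked minus control, on the vertical axis, with rises in red, falls in blue and the rest grey. The 234 rises reach larger changes than the 242 falls, with Nr4a3 and Tfrc at the upper edge and Plpp3 and G0s2 at the lower.

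Immediate early genes, transcription factors and their partners that contraction, growth factors or stress induce without new protein synthesis, included 7 that rose in the walked pools and none that fell. For this list 36 of 50 listed genes are on the array, 30 were tested, 7 rose and 0 fell, and the median log2 fold change was 0.37. Nr4a1, an orphan nuclear receptor that drives genes of glucose use in muscle, had signals of 302, 366 and 334 in the control pools and 1361 and 1980.4 in the walked pools (log2 fold change 2.30 ± 0.27 SE, adjusted p = 0.000613). The groups did not overlap, and the lower walked pool stood far above the highest control pool. Atf3, a stress-induced repressor of the ATF/CREB family, read 228, 278 and 170.5 against 1212 and 1617 (log2 fold change 2.67 ± 0.23 SE, adjusted p = 8.86e-05), again with both walked pools far above control.

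Nr4a3, the close relative of Nr4a1, rose on both of its probe sets. The brighter read 32.2, 68.7 and 50.7 against 137 and 181 (log2 fold change 1.71 ± 0.43 SE, adjusted p = 0.0345). The dimmer read 22.8, 12.3 and 3 against 719 and 949 and gave log2 fold change 6.30 ± 0.68 SE, adjusted p = 0.000339, the largest rise of all named genes, but 1 of its control arrays was at the signal floor, so the size depends on that floor. Its control signals were all under the brightness filter of 25.8, so this probe set was tested only through its other arrays. Both walked pools were above every control pool on each.

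Crem, whose ICER products shut off cAMP-driven transcription, read 240.1, 241 and 161 against 580.5 and 519 (log2 fold change 1.39 ± 0.20 SE, adjusted p = 0.00253), with a second probe set at 2.64 and another not called (0.95, adjusted p = 0.0903). Klf4, a zinc finger factor of growth arrest, rose from 56.5 ± 8.86 (SD, n = 3) to 227 ± 24.3 (SD, n = 2) (log2 fold change 2.02 ± 0.30 SE, adjusted p = 0.0029). Egr1, a zinc finger factor and a common read-out of growth factor signalling, rose from 461 ± 52.1 (SD, n = 3) to 807 ± 81.0 (SD, n = 2) (log2 fold change 0.81 ± 0.19 SE, adjusted p = 0.0278), and Zfp36l1, which speeds the decay of AU-rich mRNAs, had a log2 fold change of 0.98. Walked pools were higher than control pools without overlap for each of these.

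The members that did not pass give the other side. Fos, the best known immediate early gene, had 481, 529 and 357 in the control pools and 793 and 919 in the walked pools (log2 fold change 0.93, adjusted p = 0.0804), and Myc 26.4, 49.3 and 40.4 against 37.8 and 34.1 (-0.06, adjusted p = 0.945). For Fos both walked pools lay above control, yet the difference did not pass the threshold, and the Myc values overlapped. Without 1 array the list gave 3 to 8 rises and 0 to 1 falls, with 4 and 0 without control pool 3. Atf3, Nr4a1 and Crem kept their calls in every fit that left out 1 array. Calls lost without the pool given, with the highest adjusted p, were those of Nr4a3 (control pool 1 or 3, either walked pool, up to 0.215), Klf4 (walked pool 2, up to 0.0504), Egr1 (control pool 1 or 3, either walked pool, up to 0.191) and Zfp36l1 (any control pool, unloaded pool 1, either walked pool, up to 0.255).

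Heat shock proteins, chaperones that refold damaged proteins, rose in part. For the cytosolic and mitochondrial chaperones 19 of 34 listed genes are on the array, 19 were tested, 5 rose and 0 fell, with a median of 0.31. Hspa1a, the inducible Hsp70, had 887, 1143 and 981 in the control pools and 2685 and 3116 in the walked pools (log2 fold change 1.54 ± 0.19 SE, adjusted p = 0.00107), and both walked pools were above every control pool. Rats carry a near-identical copy of this gene, so the probe set may read both. Dnajb5, an Hsp40 co-chaperone, rose from 477 ± 26.2 (SD, n = 3) to 1013 ± 111 (SD, n = 2) (log2 fold change 1.09 ± 0.16 SE, adjusted p = 0.0029). Hsph1, the Hsp70 nucleotide exchange factor Hsp105, rose by 0.73 ± 0.18 (SE) on the log2 scale, and the mitochondrial pair Hspd1 (Hsp60) and Hspe1 (Hsp10) by 0.49 ± 0.14 and 0.57 ± 0.13.

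Among the small heat shock proteins, which guard the myofibril, 4 of 7 listed genes are on the array, 4 were tested, 0 rose and 0 fell. Hspb1 read 3862, 4129.8 and 4851 against 6411 and 5684 (log2 fold change 0.51, adjusted p = 0.0663), with both walked pools above control but short of the threshold. The list's median was 0.25 and -0.03 after quantile normalization, so its direction turned with the scaling. In the endoplasmic reticulum list 13 of 23 listed genes are on the array, 13 were tested, 2 rose and 0 fell. The risers were Hspa5, the luminal Hsp70 known as BiP (log2 fold change 0.78 ± 0.19 SE, adjusted p = 0.0306), and its co-chaperone Dnajb9 (log2 fold change 0.93 ± 0.21 SE, adjusted p = 0.0216).

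Without 1 array the cytosolic list gave 1 to 5 rises and 0 falls and the endoplasmic reticulum list 0 to 2 rises and 0 falls. Hspa1a kept its call throughout. Lost calls were those of Dnajb5 (walked pool 2, up to 0.0529), Hsph1 (control pool 2 or 3, either walked pool, up to 0.163), Hspe1 (control pool 1 or 2, either walked pool, up to 0.146), Hspd1 (control pool 1 or 2, unloaded pool 1 or 2, either walked pool, up to 0.216), Hspa5 (control pool 2 or 3, either walked pool, up to 0.164) and Dnajb9 (control pool 1 or 2, either walked pool, up to 0.115).

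Promoters of the genes that changed were searched for motifs of the factors that answer to cAMP, heat shock and serum, because the risers above include textbook targets of each. RefSeq promoters on the GRCr8 assembly, 250 bases before to 50 after the start, were at hand for 2612 of the 3154 tested genes, 100 of the rises and 129 of the falls. The cAMP response element TGACGTCA, on either strand, was in 4 of 100 rising and 2 of 129 falling promoters (1.55%), beside 2.56% of tested and 1.91% of all 27457 promoters. Its shorter form TGACG, which also lies inside every full element, was in 45.0% of rising, 22.5% of falling, 31.1% of tested and 22.0% of all promoters. The 3-unit heat shock element, GAANNTTC followed by NNGAA, was in 3 of 100 rising and 1 of 129 falling promoters, beside 0.574% of tested and 0.736% of all. Those 3 are of Hsph1, Hspe1 and Hspd1, and Hspe1 and Hspd1 share 1 stretch, which is counted for both. The shorter GAANNTTC, contained in the longer one, was in 6 of 100 rising promoters, 5.43% of falling, 5.17% of tested and 8.34% of all promoters. The CArG box of serum response factor was in 4 of 100 rising and 1 of 129 falling promoters, beside 1.799% of tested and 1.64% of all. These are descriptions of letters in a window, and no binding was measured.

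Stretches that hold a match are shown in their transcribed direction with the motif in capitals. They come from Nr4a1, which has only the short form TGACG, here on the other strand (chr7:134260073-134260101, plus strand, bases -65 to -37 from the start, 1 of 4 in its window), from Ppp1r15a, a stress gene described below, with the full element (chr1:105139625-105139692, minus strand, bases -96 to -29 from the start), the chaperone genes Hsph1 (chr12:10427324-10427352, plus strand, bases -44 to -16 from the start) and Hspe1 (chr9:64084256-64084285, plus strand, bases -71 to -42 from the start), and, for the CArG box, the contractile genes Acta1 (chr19:68784249-68784318, minus strand, bases -124 to -55 from the start) and Myl3 (chr8:119616967-119617036, plus strand, bases -127 to -58 from the start). Hspe1 and Hspd1 lie head to head, and the Hspe1 stretch is inside the Hspd1 window too.
Nr4a1: cccctctccatgCGTCAcggagcgcttaa
Ppp1r15a: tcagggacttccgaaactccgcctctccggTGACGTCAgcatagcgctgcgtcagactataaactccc
Hsph1: gccgcagaTTCTGGAAAGTTCtcctcagt
Hspe1: gctcggTTCTAGAACCTTCCGGAAggcccc
Acta1: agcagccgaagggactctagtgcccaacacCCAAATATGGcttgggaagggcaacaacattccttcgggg
Myl3: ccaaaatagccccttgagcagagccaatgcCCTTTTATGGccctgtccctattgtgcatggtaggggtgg
All 6 were picked from the genes that rose, so their direction carries no information on the motifs. Genes that fell held them too: Tspy1 and Chmp2a the full cAMP element, Crispld2 the 3-unit heat shock element and Map4k1 a CArG box. Hspa1a, the chaperone gene with the largest rise, had none of these motifs in the window.

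In the list of the integrated stress response and growth arrest 13 of 26 listed genes are on the array, 11 were tested, 3 rose and 1 fell, with a median of 0.50. Ppp1r15a, also called Gadd34, which restores translation by dephosphorylating eIF2-alpha, read 263, 255 and 293 against 609 and 685 (log2 fold change 1.26 ± 0.22 SE, adjusted p = 0.00713), and its second probe set rose by 2.04. Cdkn1a, the cell cycle inhibitor p21, read 57.7, 33.9 and 37.5 against 113 and 104 (log2 fold change 1.37 ± 0.27 SE, adjusted p = 0.012). Trib3, an inhibitor of Akt, rose from 42.2 ± 18.2 (SD, n = 3) to 112 ± 1.13 (SD, n = 2) (log2 fold change 1.53 ± 0.43 SE, adjusted p = 0.0497). The walked values of all of them lay above the control values.

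Txnip moved the other way. This inhibitor of thioredoxin and of glucose uptake read 1899, 2315 and 2383 against 1035 and 819 (log2 fold change -1.25 ± 0.15 SE, adjusted p = 0.000813), and both walked pools were below all control pools. Gadd45a, a growth arrest gene that also rises in denervated muscle, was not called (0.58, adjusted p = 0.13). Without 1 array the list gave 0 to 3 rises and 1 falls. Txnip kept its call throughout, while those lost were of Ppp1r15a (walked pool 2, up to 0.0786), Cdkn1a (either walked pool, up to 0.0874) and Trib3 (control pool 2 or 3, unloaded pool 1 or 3, either walked pool, up to 0.214).

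Heme, iron and oxidant genes went both ways. Of that list 27 of 35 listed genes are on the array, 26 were tested, 4 rose and 1 fell. Tfrc, the transferrin receptor that brings iron into cells, had 3.70, 11.4 and 11.6 in the control pools and 114 and 121 in the walked pools (log2 fold change 3.85 ± 0.50 SE, adjusted p = 0.00136), so that both walked pools were many times the highest control pool. Its lowest control pool was at the signal floor, and the size of the change depends on that floor. Hmox1, heme oxygenase 1, which breaks down heme, read 157, 121 and 157 against 493 and 622 (log2 fold change 1.94 ± 0.23 SE, adjusted p = 0.000685) and 2.65 on its other probe set. Prdx1, a peroxiredoxin that removes peroxides, read 219, 210.3 and 258 against 740.3 and 699 (log2 fold change 1.66 ± 0.15 SE, adjusted p = 0.000108).

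Cp, the copper ferroxidase ceruloplasmin, rose from 45.8 ± 4.10 (SD, n = 3) to 104 ± 10.5 (SD, n = 2) (log2 fold change 1.18 ± 0.23 SE, adjusted p = 0.0118). Gsr, which regenerates reduced glutathione, fell from 131 ± 23.9 (SD, n = 3) to 61.4 ± 14.7 (SD, n = 2) (log2 fold change -1.10 ± 0.23 SE, adjusted p = 0.0157). Tfrc, Hmox1 and Prdx1 kept their calls in every fit without 1 array, and losses were of Cp (either walked pool, up to 0.106) and Gsr (walked pool 2, up to 0.14). The summed signal of markers of red cells, a source of heme, was lower in the walked pools as given above. Of the 4 tested none was called, 1 lay above 0 and 3 below, and the part of red cells was not tested.

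**Figure D2:**
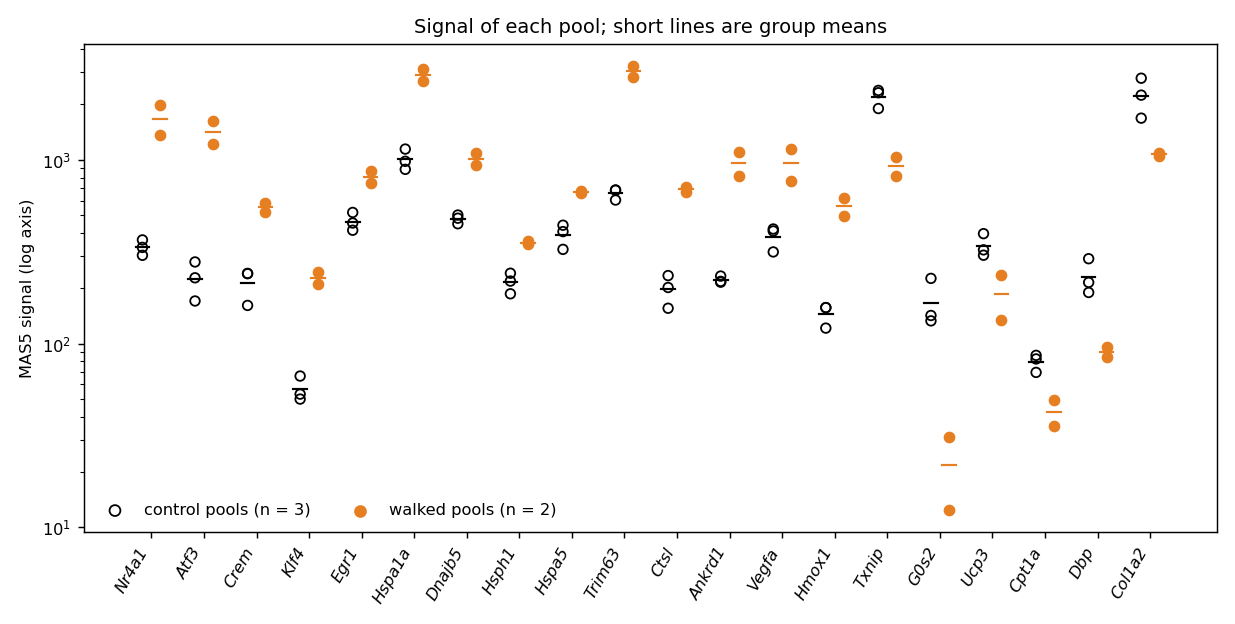
Columns are 20 called genes, the vertical log axis is the deposited MAS5 signal, open circles are the 3 control pools, filled circles the 2 walked pools and short lines the group means. The walked pools lie wholly above or wholly below the control pools in every column, as they did for every called probe set, so this adds no support. Over all tested probe sets, 15.3% lay wholly above and 27.8% wholly below.

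Genes of protein breakdown, the system that shrinks unloaded muscle, included 6 rises and 1 fall over the lists of proteasome and lysosome. For the proteasome and ubiquitin list 32 of 57 listed genes are on the array, 31 were tested, 5 rose and 0 fell, while its median was -0.15 beside -0.11 for all genes. Trim63, the muscle ubiquitin ligase MuRF1 that marks myofibrillar proteins, had 685, 683 and 604 in the control pools and 3229 and 2833 in the walked pools (log2 fold change 2.21 ± 0.14 SE, adjusted p = 9.41e-06), with both walked pools above all control pools. Its probe set is of a kind that can match several transcripts. Subunits of the proteasome core rose as well: Psma4 by 1.66 ± 0.19 (SE), Psma2 by 0.73 ± 0.16 and Psma6 by 0.49 ± 0.14 on the log2 scale, with the activator Psme4 at 1.41 ± 0.26. The dimmest Psma2 probe set rose by 2.26.

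In the lysosomal and calpain list 19 of 28 listed genes are on the array, 17 were tested, 1 rose and 1 fell. Ctsl, cathepsin L, a lysosomal protease that rises in many forms of muscle wasting, read 202, 234 and 156 against 669 and 712 (log2 fold change 1.83 ± 0.17 SE, adjusted p = 0.000151), clear of the control range. Ctsh, another cathepsin, fell from 266 ± 27.6 (SD, n = 3) to 163 ± 16.8 (SD, n = 2) (log2 fold change -0.71 ± 0.17 SE, adjusted p = 0.0273). The proteasome list gave 2 to 5 rises and 0 falls without 1 array, and 5 rises and 2 falls with the probe sets of each gene averaged. Trim63, Psma4 and Ctsl kept their calls in each of those fits, and losses were of Psme4 (either walked pool, up to 0.0866), Psma2 (control pool 1 or 2, either walked pool, up to 0.157), Psma6 (any control pool, unloaded pool 1 or 2, either walked pool, up to 0.206) and Ctsh (control pool 2 or 3, either walked pool, up to 0.189).

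Genes of protein synthesis showed single large rises among many small changes. Of 32 translation factors listed 19 are on the array, 18 were tested, 2 rose and 0 fell. Eif4a2, an RNA helicase of the cap-binding complex, read 390.4, 344 and 272 against 2667 and 2709 (log2 fold change 3.02 ± 0.17 SE, adjusted p = 3.86e-06), on a probe set of the kind that can match several transcripts. Eif4e, the cap-binding protein, read 50.1, 55 and 64.8 against 150.2 and 148 (log2 fold change 1.41 ± 0.19 SE, adjusted p = 0.00138). Neither overlapped control. After quantile normalization the list had 2 rises and 2 falls.

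Ribosomal protein genes went both ways, with 40 of 40 tested, 5 rising and 2 falling. Rps3a rose from 818 ± 72.0 (SD, n = 3) to 2999 ± 469.7 (SD, n = 2) (log2 fold change 1.87 ± 0.20 SE, adjusted p = 0.000303), and the others, Rpl35a, Rpl26, Rpl23 and Rpl31, by 0.98, 0.66, 0.56 and 0.52. Rpl14 and Rpl13a had -0.69 and -0.51. This split turned with the scaling, to 2 rises and 7 falls after quantile normalization, so no direction is given for the family. Of the nucleolar list, 13 of 23 listed genes are on the array, 13 were tested, 1 rose and 0 fell. The riser was Gnl3, nucleostemin, a nucleolar GTPase of growing cells, at log2 fold change 1.499 ± 0.20 SE, adjusted p = 0.00141, with a second probe set at 2.79 and another not called (0.92, adjusted p = 0.602). Rps3a, Eif4a2, Eif4e and Gnl3 kept their calls in every fit without 1 array, and losses were of Rpl35a (either walked pool, up to 0.0591), Rpl26 (control pool 2 or 3, unloaded pool 1 or 2, either walked pool, up to 0.272), Rpl23 (control pool 2, either walked pool, up to 0.123), Rpl31 (control pool 2, either walked pool, up to 0.144), Rpl14 (control pool 2 or 3, either walked pool, up to 0.181) and Rpl13a (any control pool, unloaded pool 1, either walked pool, up to 0.192).

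The respiratory chain list, the complexes of the inner mitochondrial membrane that make ATP, had 10 of 39 tested genes rising, read against 3.74% of all genes. It lists 62 genes, those 39 are on the array, none of them fell, and the median was 0.03. Ndufs1, the iron-sulfur subunit of complex I, read 44.7, 67.3 and 26.4 against 370.4 and 299 (log2 fold change 2.96 ± 0.31 SE, adjusted p = 0.000283). Atp5pd, a stalk subunit of ATP synthase, read 997, 1049 and 882 against 3113 and 3189 (log2 fold change 1.70 ± 0.13 SE, adjusted p = 2.76e-05). For both, the walked pools were clear of the control range.

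Further rises were of the complex I subunits Ndufa5 (1.07) and Ndufb3 (1.16) and of Ndufa4, now placed in complex IV (1.11). So did Atp5pf (1.11), Uqcrc2 of complex III (0.71), the complex IV subunits Cox7b (0.77) and Cox6a2 (0.51), and Slc25a5, which exchanges ADP for ATP (0.97). The list covers only part of the chain. Among 26 further tested genes of the chain and its assembly, looked up after these values were seen, Ndufb1 and COX3 rose by 1.13 and 0.59, and Ndufc2, Ndufaf3, Uqcc2 and Coa3 had -0.66, -0.73, -0.74 and -0.76, all falls. After quantile normalization the list itself had 9 rises, 2 falls and a median of -0.09.

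Leaving out 1 array gave 5 to 10 rises and 0 falls. Atp5pd, Ndufs1 and Ndufa5 kept their calls each time, and losses were of Atp5pf (walked pool 2, up to 0.0525), Slc25a5 (walked pool 2, up to 0.0678), Cox7b (walked pool 1, up to 0.0591), Ndufb3 (walked pool 2, up to 0.0678), Ndufa4 (walked pool 1, up to 0.0756), Uqcrc2 (walked pool 2, up to 0.103) and Cox6a2 (control pool 1 or 2, unloaded pool 1, either walked pool, up to 0.301). Of the citrate cycle and shuttle enzymes 18 of 25 listed genes are on the array, 16 were tested, 1 rose and 0 fell, the riser being the cytosolic Idh1 (log2 fold change 1.24 ± 0.23 SE, adjusted p = 0.00986), which lost its call without either walked pool (adjusted p up to 0.0905).

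Genes of fatty acid use that were called by their brightest probe set were lower. In that list 46 of 57 listed genes are on the array, 44 were tested, 0 rose and 4 fell, with a median of -0.04. G0s2, an inhibitor of the lipase that opens fat droplets, had 142, 133 and 226 in the control pools and 31.1 and 12.4 in the walked pools (log2 fold change -3.04 ± 0.35 SE, adjusted p = 0.000606), so both walked pools were far below the lowest control pool. Cpt1a, a form of the enzyme that admits fatty acids to mitochondria, read 86.3, 82.5 and 69.7 against 35.7 and 49.3 (log2 fold change -0.91 ± 0.23 SE, adjusted p = 0.0327). Ucp3, a mitochondrial carrier of muscle that rises with circulating fatty acids, read 302, 396 and 324 against 236 and 134 (log2 fold change -0.93 ± 0.23 SE, adjusted p = 0.032), and Bdh1, of ketone body use, 196, 189.8 and 194 against 123 and 91.2 (log2 fold change -0.87 ± 0.19 SE, adjusted p = 0.0221). All 4 lay below control without overlap.

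Cd36, the fatty acid transporter of the muscle membrane, was high in the walked pools and scattered in control. Its brighter probe set read 382, 419 and 47.1 in the control pools and 1032 and 997 in the walked pools, where control pool 3 was far below its group, and was not called (log2 fold change 2.37, adjusted p = 0.0594). The second probe set had the same pattern and was called (log2 fold change 2.00 ± 0.51 SE, adjusted p = 0.0361). Pdk4, the kinase that turns muscle from glucose to fat, read 2032, 2657 and 1821 against 2221 and 2090.5 (0.01, adjusted p = 0.977), and Lpl, lipoprotein lipase, 2172, 2404 and 2194 against 2720.0 and 2553 (0.23, adjusted p = 0.474). For Pdk4 the groups overlapped, and for Lpl the walked pools were slightly above control without passing the threshold. Scarb1, a lipoprotein receptor, fell on a dim probe set (-2.82, adjusted p = 0.0181) while its brightest did not pass (-0.10, adjusted p = 0.844).

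The fatty acid list gave 0 to 2 rises and 1 to 5 falls without 1 array. G0s2 kept its call throughout, and losses were of Bdh1 (control pool 2, walked pool 2, up to 0.185), Ucp3 (control pool 2, walked pool 2, up to 0.251) and Cpt1a (control pool 1 or 2, either walked pool, up to 0.193). The log2 change of Ucp3 ran from -1.34 to -0.52 over those fits. In the amino acid list 26 of 37 listed genes are on the array, 20 were tested, 0 rose and 3 fell. They are enzymes of branched-chain amino acid breakdown: Bcat2 (-1.10, adjusted p = 0.021), Bckdhb (-0.70, adjusted p = 0.0271) and Ivd (-0.62, adjusted p = 0.0337), and no walked pool of theirs reached the control range. Losses were of Bcat2 (control pool 2, walked pool 2, up to 0.184), Bckdhb (control pool 2 or 3, either walked pool, up to 0.144) and Ivd (control pool 2 or 3, either walked pool, up to 0.204).

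**Figure D3:**
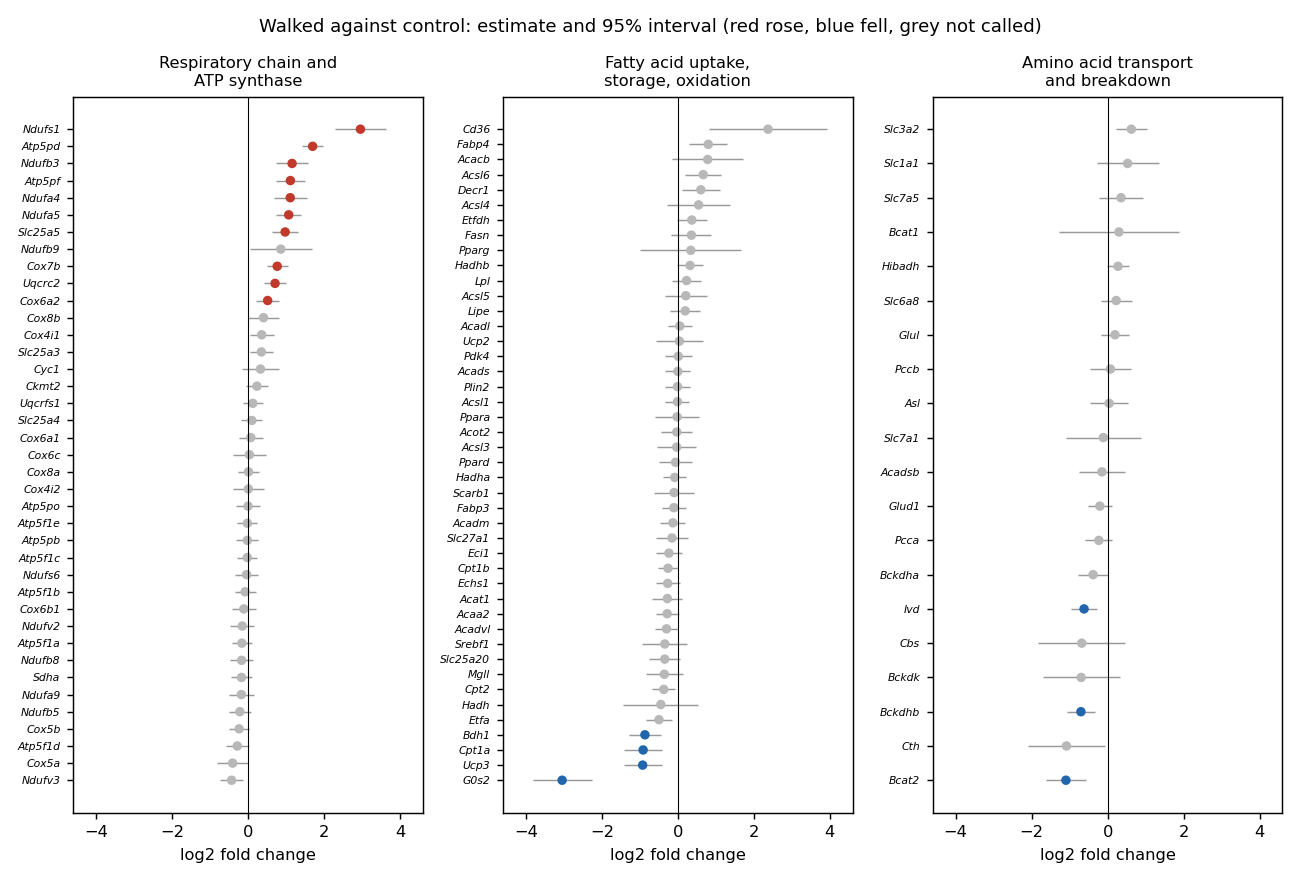
Points are the log2 fold change, walked minus control, of every tested gene of the respiratory chain, fatty acid and amino acid lists, with its 95% interval as a bar, red for rises, blue for falls and grey where not called. The 10 called respiratory chain genes lie to the right of 0 and the 4 called fatty acid and 3 called amino acid genes to the left.

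Among genes of glucose use 36 of 46 listed genes are on the array, 34 were tested, 3 rose and 2 fell, and after quantile normalization the falls were gone, with 3 rises and 0 falls. Slc2a1, the basal glucose transporter GLUT1, rose from 71.2 ± 7.96 (SD, n = 3) to 155 ± 36.1 (SD, n = 2) (log2 fold change 1.11 ± 0.23 SE, adjusted p = 0.0165), and Hk2, the hexokinase that traps glucose in muscle, from 331 ± 85.1 (SD, n = 3) to 578 ± 128 (SD, n = 2) (log2 fold change 0.83 ± 0.23 SE, adjusted p = 0.0497). The glycolytic enzyme Pgam1 rose by 0.52. Slc16a7, a monocarboxylate transporter, and Aldoc, an aldolase, had -1.19 and -1.03, both falls. Slc2a4, the insulin-responsive transporter GLUT4, read 1526, 1724 and 1607 against 1658 and 1639.6 (log2 fold change 0.03, 95% interval -0.26 to 0.32), and its groups overlapped.

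Of the insulin and energy list 25 of 32 listed genes are on the array, 21 were tested, 1 rose and 1 fell, and the fall was not called after quantile normalization. Sgk1, a kinase induced by glucocorticoids and insulin, rose from 70.7 ± 4.87 (SD, n = 3) to 136 ± 4.24 (SD, n = 2) (log2 fold change 0.94 ± 0.23 SE, adjusted p = 0.0326), and Prkag1, a regulatory subunit of AMP-activated kinase, fell from 144 ± 9.87 (SD, n = 3) to 81.9 ± 29.6 (SD, n = 2) (log2 fold change -0.86 ± 0.23 SE, adjusted p = 0.039). Irs2, the insulin receptor substrate, rose on 1 dim probe set (2.66, adjusted p = 0.0181), while another dim one (2.38, adjusted p = 0.0846) and the brightest (0.66, adjusted p = 0.142) were not called. The called one read 14.6, 13.5 and 15 in the control pools, all under the brightness filter of 25.8. Without 1 array the glucose list gave 0 to 2 rises and 0 to 1 falls, and none of the 7 calls of both lists held in all of those fits. Losses were of Slc2a1 (control pool 2, walked pool 2, up to 0.175), Pgam1 (control pool 2 or 3, either walked pool, up to 0.168), Slc16a7 (any control pool, either walked pool, up to 0.153), Aldoc (any control pool, any unloaded pool, either walked pool, up to 0.217), Hk2 (any control pool, any unloaded pool, either walked pool, up to 0.331), Sgk1 (any control pool, either walked pool, up to 0.177) and Prkag1 (any control pool, unloaded pool 1, walked pool 2, up to 0.312). The log2 change of Prkag1 ran from -1.24 to -0.48 over those fits.

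Genes of the slow myofibril included small rises. In that list 8 of 12 listed genes are on the array, 7 were tested, 3 rose and 0 fell, with a median of 0.49. Tnni1, slow troponin I, read 3180.1, 3131 and 3176 against 4520.5 and 4946 (log2 fold change 0.58 ± 0.15 SE, adjusted p = 0.0377), with the walked pools above control. Myl2 and Myl3, the slow myosin light chains, had 0.60 ± 0.16 (SE) and 0.58 ± 0.16. Myh7, the slow myosin heavy chain, was not called on its brightest probe set (0.47, adjusted p = 0.0618) but was on another (1.06, adjusted p = 0.0164). Tpm3, slow tropomyosin, went the other way, below 0 on all 4 of its probe sets. Its brightest was not called (-0.47), and another was a fall (-1.71, adjusted p = 0.0358). With the probe sets of each gene averaged, the list gave 4 rises and 1 fall. After quantile normalization none of the list was called, with 0 rises and 0 falls and a median of 0.29, and without 1 array it gave 0 to 3 rises and 0 falls.

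Of the fast fibre list 14 of 19 listed genes are on the array, 13 were tested, 1 rose and 1 fell, which became 0 and 1 after quantile normalization. Ckm, muscle creatine kinase, had 0.93, adjusted p = 0.0361, and Casq1, the calcium buffer of the fast sarcoplasmic reticulum, -0.48, adjusted p = 0.0409. Myh2, a fast myosin heavy chain, was not called (-0.36, adjusted p = 0.148). In the ion channel and pump list 41 of 52 listed genes are on the array, 31 were tested, 1 rose and 1 fell. The members that moved were Calm2, a calmodulin gene (log2 fold change 1.38 ± 0.19 SE, adjusted p = 0.00179), and Kcnj8, a subunit of a potassium channel gated by ATP (log2 fold change -0.87 ± 0.18 SE, adjusted p = 0.0172). Calm2 kept its call throughout, and losses in these lists were of Tnni1 (any control pool, either walked pool, up to 0.217), Myl2 (control pool 1 or 2, either walked pool, up to 0.184), Myl3 (any control pool, unloaded pool 3, either walked pool, up to 0.219), Ckm (control pool 2 or 3, either walked pool, up to 0.219), Casq1 (any control pool, either walked pool, up to 0.227) and Kcnj8 (either walked pool, up to 0.112).

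Stretch and myogenic genes included 1 large rise. Here 31 of 40 listed genes are on the array, 28 were tested, 2 rose and 2 fell. Ankrd1, the titin-bound ankyrin protein CARP that follows mechanical strain, had 233, 218 and 216 in the control pools and 813 and 1107 in the walked pools (log2 fold change 2.10 ± 0.27 SE, adjusted p = 0.00136), and the walked pools were clear of control. Acta1, skeletal alpha-actin, read 1449, 1336 and 1291 against 2128 and 3815 (log2 fold change 1.07 ± 0.24 SE, adjusted p = 0.0221). The insulin-like growth factor binding proteins Igfbp5 and Igfbp6 fell, with -1.42 ± 0.35 (SE) and -0.84 ± 0.16, although a dimmer Igfbp5 probe set was not called and had the opposite sign (0.45, adjusted p = 0.773). Csrp3, the muscle LIM protein of the Z-disc, missed the threshold (0.52, adjusted p = 0.0513), as did Rrad, a GTPase that restrains calcium channels (0.57, adjusted p = 0.102). Ankrd1 kept its call without any 1 array, and losses were of Acta1 (control pool 2, walked pool 2, up to 0.193), Igfbp5 (control pool 2 or 3, walked pool 1, up to 0.184) and Igfbp6 (either walked pool, up to 0.0952). The log2 change ran from 0.65 to 1.49 for Acta1 and from -1.90 to -0.94 for Igfbp5 over those fits.

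At the neuromuscular junction 16 of 19 listed genes are on the array, 14 were tested, 1 rose and 1 fell. Runx1, a factor that rises in denervated muscle, had 0.69, adjusted p = 0.0368, and Agrn, the agrin that clusters acetylcholine receptors, -0.82, adjusted p = 0.0314. Both calls were lost without some pools, namely Runx1 (control pool 1 or 2, either walked pool, up to 0.195) and Agrn (control pool 2 or 3, either walked pool, up to 0.144). The summed signal of Schwann and nerve markers was lower in the walked pools, as given above, with only Cnp called of the 6 tested. The part of these cells here was not tested.

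Growth factor genes held rises of 2 secreted factors. Of that list 42 of 52 listed genes are on the array, 30 were tested, 2 rose and 2 fell. Vegfa, which drives capillary growth, read 420.1, 409.7 and 315 against 764 and 1147 (log2 fold change 1.31 ± 0.20 SE, adjusted p = 0.0029). Hbegf, a ligand of the EGF receptor, read 13.6, 45.6 and 28.7 against 153 and 194 (log2 fold change 2.73 ± 0.50 SE, adjusted p = 0.00892). Nrp1, a co-receptor of Vegfa, went the other way at 111, 136 and 152 against 43.7 and 53.2 (log2 fold change -1.45 ± 0.22 SE, adjusted p = 0.0029), and none of these overlapped control.

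Plpp3, a phosphatase that ends lysophosphatidic acid signals, fell on both probe sets. The brighter read 154, 135 and 126 against 50.1 and 66.7 (log2 fold change -1.25 ± 0.23 SE, adjusted p = 0.00986), and the dimmer, 136, 65.9 and 119.7 against 7.10 and 11.7, gave -3.49, the largest fall of all named genes. Its relative Plpp1 was not called on its brightest probe set (-0.39, adjusted p = 0.0944), while its other probe sets fell (-0.73, adjusted p = 0.034 and -0.60, adjusted p = 0.0297). Vegfa and Nrp1 kept their calls in every fit without 1 array, and losses were of Hbegf (either walked pool, up to 0.103) and Plpp3 (walked pool 1, up to 0.0866). Endothelial markers overlapped between the groups, as given above.

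Extracellular matrix genes went both ways, with 38 of 50 listed tested, 2 rising and 3 falling. Dcn, decorin, a proteoglycan of collagen fibrils, rose from 799 ± 171 (SD, n = 3) to 2237 ± 199 (SD, n = 2) (log2 fold change 1.51 ± 0.20 SE, adjusted p = 0.00151), and Sdc4, syndecan 4, from 1353 ± 184 (SD, n = 3) to 3328 ± 540.4 (SD, n = 2) (log2 fold change 1.30 ± 0.18 SE, adjusted p = 0.00218). Of the other Dcn probe sets 1 rose (2.45) and 2 were not called (0.33, adjusted p = 0.611 and 0.27, adjusted p = 0.473). Col1a2, a chain of type I collagen, had -1.03, adjusted p = 0.0185, Timp2, a metalloproteinase inhibitor, -0.72, adjusted p = 0.0372, and Itga7, the laminin receptor of muscle fibres, -0.72, adjusted p = 0.0168, all falls. Col1a1, Col3a1 and the collagen chaperone Serpinh1 were not called on their brightest probe sets (-0.53, -0.12 and -0.14), though 2 of 4 Col1a1 probe sets fell. Fibroblast markers as a sum overlapped, and this sum includes Dcn, Col1a1, Col1a2 and Col3a1. Dcn and Sdc4 kept their calls without any 1 array, and losses were of Col1a2 (either walked pool, up to 0.104), Timp2 (control pool 1 or 3, unloaded pool 1, either walked pool, up to 0.22) and Itga7 (either walked pool, up to 0.113).

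Among inflammatory mediators 33 of 40 listed genes are on the array, 19 were tested, 2 rose and 0 fell. Ccl2, the chemokine that draws monocytes, rose from 63.0 ± 5.71 (SD, n = 3) to 149 ± 74.5 (SD, n = 2) (log2 fold change 1.16 ± 0.31 SE, adjusted p = 0.0409), and Il6r, the receptor of interleukin 6, from 72.3 ± 5.13 (SD, n = 3) to 140.4 ± 21.9 (SD, n = 2) (log2 fold change 0.95 ± 0.19 SE, adjusted p = 0.0127). The summed leukocyte signal was lower in the walked pools, as given above, but of its 7 tested markers only Cd74 was called. Of those markers 3 lay above 0 and 4 below, with a median of -0.05 beside -0.11 for all genes. In the antigen presentation list 12 of 17 listed genes are on the array, 12 were tested, 0 rose and 3 fell, with a median of -0.42. They belong to the class II pathway of professional antigen-presenting cells: RT1-DMb (-0.78, adjusted p = 0.0218), Cd74, the invariant chain (-0.65, adjusted p = 0.0334), and RT1-Da (-0.58, adjusted p = 0.035). After quantile normalization 1 fall was called, and without 1 array the list gave 0 rises and 0 to 3 falls. Calls were lost for Il6r (walked pool 2, up to 0.121), Ccl2 (any control pool, unloaded pool 1 or 2, walked pool 2, up to 0.368), RT1-DMb (control pool 2, either walked pool, up to 0.119), Cd74 (any control pool, either walked pool, up to 0.164) and RT1-Da (control pool 2 or 3, either walked pool, up to 0.175), and the log2 change of Ccl2 ran from 0.62 to 1.69. The summed leukocyte signal includes Cd74 itself, which read 370, 355 and 423 in the control pools and 235 and 251 in the walked pools.

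In the cAMP list 22 of 25 listed genes are on the array, 15 were tested, 2 rose and 0 fell, namely Crem, given above, and Pde4d, a phosphodiesterase that breaks down cAMP (log2 fold change 1.34 ± 0.24 SE, adjusted p = 0.00791). Of the glucocorticoid targets 9 of 17 listed genes are on the array, 8 were tested, 2 rose and 0 fell, namely Sgk1, given above, and Errfi1, an inhibitor of EGF receptor signalling (log2 fold change 1.79 ± 0.24 SE, adjusted p = 0.0017), whose other probe set rose by 2.60. For MAP kinase genes 19 of 32 listed genes are on the array, 16 were tested, 1 rose and 1 fell, or 2 and 0 after quantile normalization. Map3k12, a kinase of the JNK branch, had 10.1, 12.3 and 8.10 in the control pools and 99.3 and 148 in the walked pools (log2 fold change 3.60 ± 0.32 SE, adjusted p = 8.86e-05), with the walked pools clear of control. Araf, a Raf kinase, had -0.63, adjusted p = 0.0361.

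Dusp1, the phosphatase that ends MAP kinase signals, was not called on its brightest probe set (0.75, adjusted p = 0.0542), but both others rose, by 1.17 and 1.08. Dusp6, its cytosolic relative, fell on 1 probe set (-2.30, adjusted p = 0.0132) and not on the brightest (-0.60, adjusted p = 0.132). Of the clock genes 9 of 18 listed genes are on the array, 9 were tested, 0 rose and 1 fell, and quantile normalization gave 1 rise and 1 fall. Dbp, an output factor of the clock, read 189.7, 215 and 289.5 against 96.1 and 85 (log2 fold change -1.33 ± 0.20 SE, adjusted p = 0.00253), below control in both walked pools. The walked rats' protocol was longer than that of the controls, and the labels give no hour of sampling, so its part was not tested. Dbp, Errfi1 and Map3k12 kept their calls in every fit without 1 array, and losses were of Pde4d (walked pool 2, up to 0.0984) and Araf (any control pool, either walked pool, up to 0.163).

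**Figure D4:**
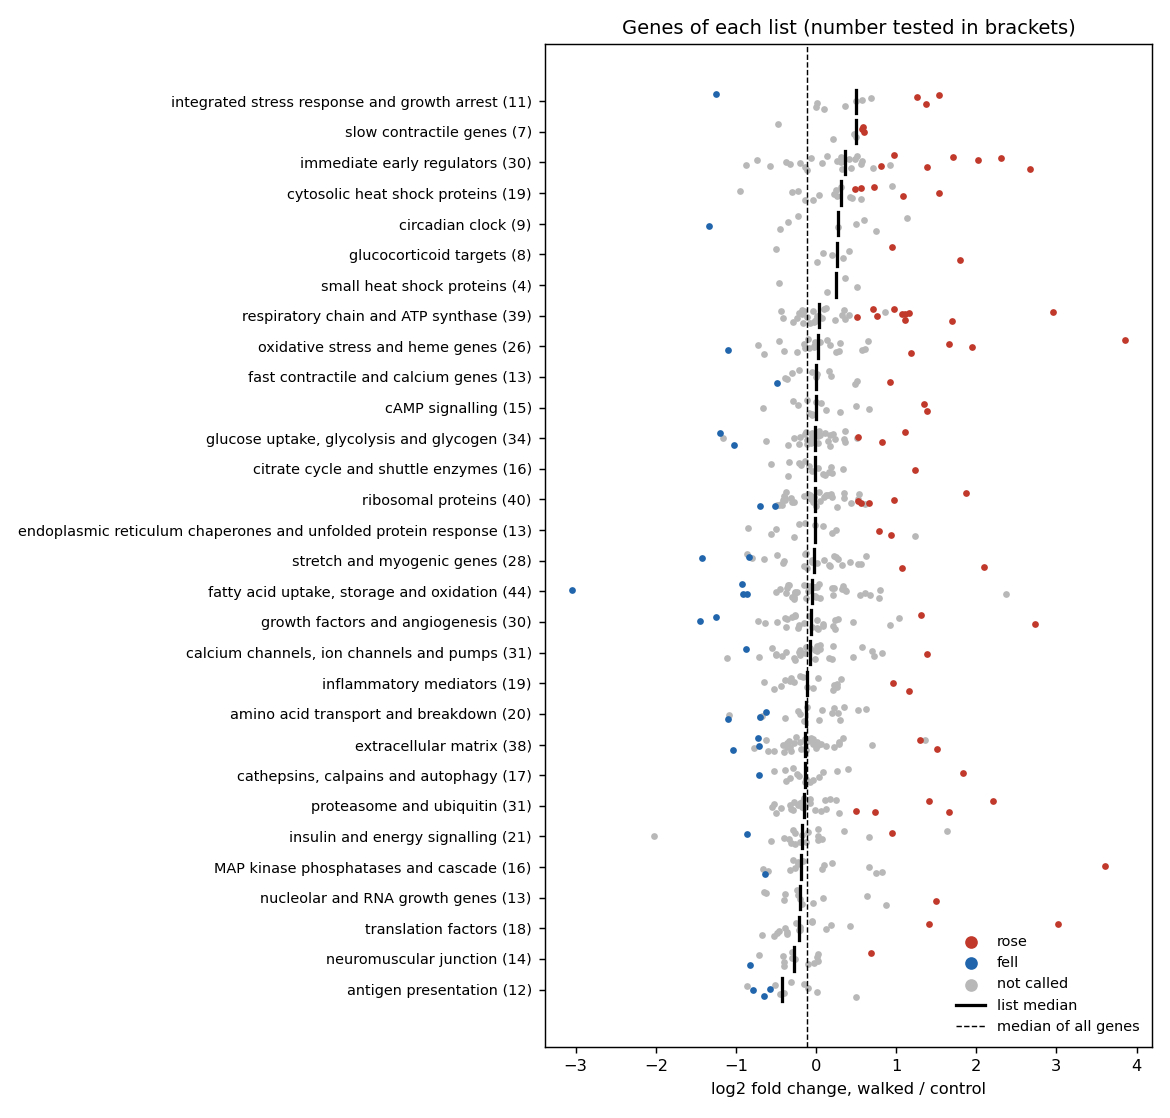
For each gene list, points show the log2 fold change, walked minus control, of every tested gene by its brightest probe set, with rises red, falls blue, a bar at the list's median and a dashed line at the median of all genes. Among the lists with at least 3 calls, rises without falls are seen in the immediate early, respiratory chain, proteasome, cytosolic heat shock and slow contractile lists, and falls without rises in the fatty acid, antigen presentation and amino acid lists. These splits count calls of the main fit only. In the proteasome list 20 of 31 genes lay below 0. After quantile normalization the respiratory chain list had 9 rises and 2 falls, and the slow contractile list no call. The fatty acid and amino acid lists then had 1 rise each.

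Several of the 20 largest changes in each direction belonged to no list above. Tcp11l2 had 404, 518 and 386 in the control pools and 1795 and 1925 in the walked pools (log2 fold change 2.11 ± 0.20 SE, adjusted p = 0.000154), clear of control. Another rise was of Ogt, which adds O-linked N-acetylglucosamine to proteins, with 1 control pool at the signal floor (2.11). Among falls were Sncg, gamma-synuclein (-2.17), Cyba, a subunit of NADPH oxidase (-1.78), Papss2, which makes the sulfate donor for matrix sugars (-1.97), Slc12a7, a potassium-chloride cotransporter (-1.71), Gpr161, an orphan receptor (-2.29), and Ocln, a tight junction protein (-1.56). Every walked signal of Sncg, Papss2, Gpr161 and Ocln was under the brightness filter, so these too were tested only through their other arrays. Irf7, a factor of the interferon response, had -1.49 on its brighter probe set. Tcp11l2 kept its call in every fit without 1 array, and losses were of Ogt (control pool 1 or 3, any unloaded pool, either walked pool, up to 0.214), Sncg (control pool 2 or 3, unloaded pool 1, either walked pool, up to 0.208), Cyba (any control pool, either walked pool, up to 0.205), Papss2 (any control pool, either walked pool, up to 0.163), Slc12a7 (any control pool, unloaded pool 1 or 2, walked pool 1, up to 0.171), Gpr161 (any control pool, walked pool 1, up to 0.131), Ocln (any control pool, any unloaded pool, either walked pool, up to 0.162) and Irf7 (control pool 1 or 2, walked pool 2, up to 0.228). The log2 change ran from -2.70 to -0.71 for Slc12a7, from -3.15 to -1.42 for Gpr161 and from -2.13 to -0.85 for Irf7.

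Probe sets of 1 gene did not always give the same call. Of 44 named genes called by the brightest of several probe sets, 22 had another that was not called, and 1 had one of the opposite sign, namely Igfbp5. Egr1 was one of the 22, with 2 of 4 probe sets not called (0.25 and 0.36). Tnfsf13, a TNF-family ligand, fell on 1 probe set (-2.14, adjusted p = 0.00986) and read 1.40, adjusted p = 0.182 on another. Kiaa0930 fell on 1 (-2.01, adjusted p = 0.0193) and not on its brightest (-0.20, adjusted p = 0.77), as did Egr4, a relative of Egr1 (-1.57, adjusted p = 0.0439 against -0.57, adjusted p = 0.102), and Tpm3, slow tropomyosin (-1.71 against -0.47). Pdap1 fell on a dim probe set (-1.52, adjusted p = 0.0453) and its much brighter one was not called (-0.29, adjusted p = 0.195). The remaining large falls, of Nthl1, Srpx, Slc22a13 and Copz2, lay between -1.51 and -1.61 on their most changed probe set. Calls on these probe sets, and on single probe sets named further above, were lost for Tnfsf13 (either walked pool, up to 0.0601), Kiaa0930 (either walked pool, up to 0.11), Egr4 (any control pool, any unloaded pool, walked pool 2, up to 0.233), Tpm3 (any control pool, either walked pool, up to 0.177), Nthl1 (control pool 1 or 2, walked pool 2, up to 0.163), Srpx (walked pool 2, up to 0.0856), Slc22a13 (control pool 2, walked pool 2, up to 0.151), Pdap1 (any control pool, unloaded pool 1 or 3, either walked pool, up to 0.235), Copz2 (walked pool 1, up to 0.0602), Scarb1 (control pool 3, either walked pool, up to 0.0786), Irs2 (either walked pool, up to 0.222) and Dusp6 (either walked pool, up to 0.0755). The call of the Egr4 probe set rested on a log2 change that ran from -2.55 to -0.59.

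For genes of contraction, stress and fuel use that were not called, the 95% interval bounds the change. For Pdk4 the log2 fold change was 0.01, 95% interval -0.35 to 0.37, and Slc2a4 is given above, so a 2-fold change of either lies outside the interval. For Lpl the brightest probe set gave 0.23, 95% interval -0.16 to 0.62, but the intervals of its other probe sets, 0.01 to 1.06 and -0.09 to 1.12, hold a 2-fold rise. For Fos it was 0.93, 95% interval 0.26 to 1.60, which holds a 2-fold rise, and for Hspb1 0.51, 95% interval 0.16 to 0.85, which does not. Over all tested probe sets the interval lay wholly within 2-fold either way for 3014, which is 57.5%. Of 40 genes chosen by name for such roles, with earlier results of these data known, 39 were tested. By their brightest probe set 21 were called, beside 8.37% of all genes, a count that the choice itself shaped. The 1 gene of the 40 that was not tested, the constitutive chaperone Hspa8, matched no probe set by name and was not analysed here.

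Calls for list members rested most on the walked pools, of which there are only 2. Of 99 called list genes 28 kept the call in every fit without 1 array, and all 71 that lost it did so without a walked pool. Walked pool 2 carried 67 of these losses, walked pool 1 54, control pools 1, 2 and 3 26, 44 and 31, and the unloaded pools, through the spread alone, 4 to 12.

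**Figure D5:**
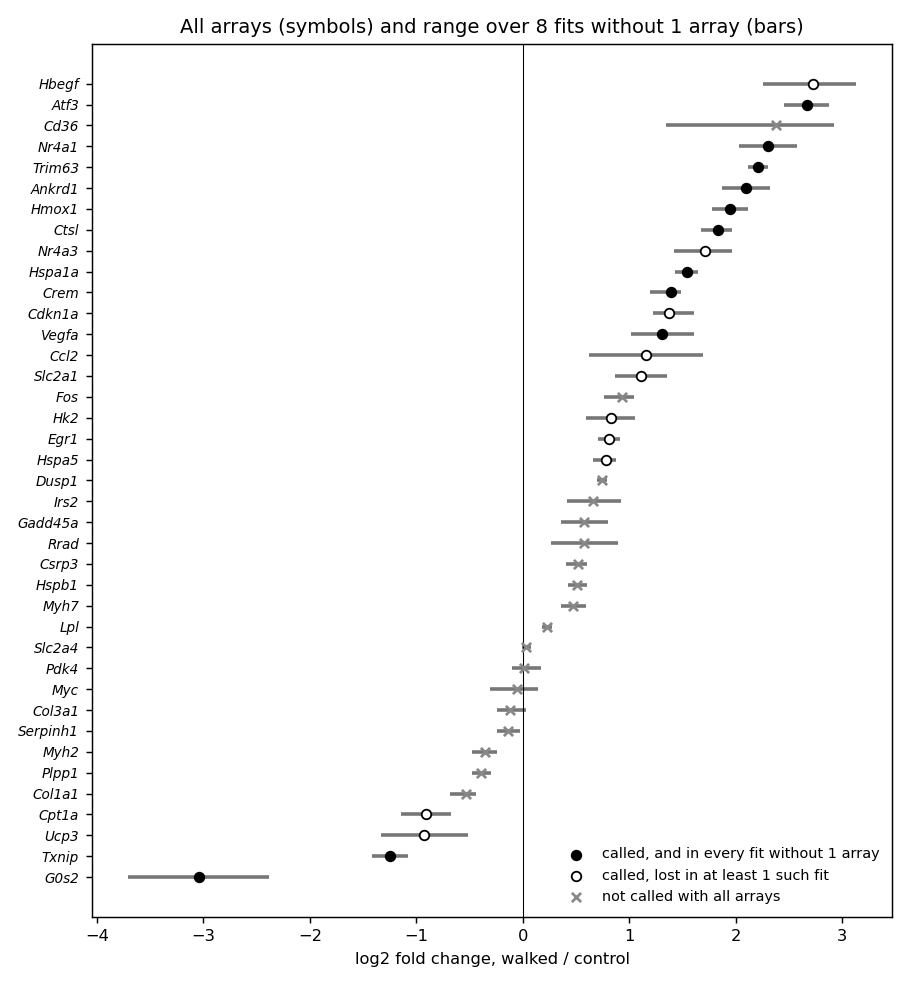
For the 39 tested genes of that set, symbols give the log2 fold change, walked minus control, with all arrays, and bars its lowest and highest value over the 8 fits without 1 array, with filled circles for calls kept in each, open circles for calls lost in at least 1 and crosses for genes not called. The bars of Cd36, Ccl2 and G0s2 are among the longest, and those of the called genes stay on 1 side of 0.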

How the data were processed

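Total RNA, 10 microg per pool, was measured on 1-colour Affymetrix arrays. The series table holds the authors' deposited MAS5 intensity per probe set, on a linear scale, per the labels; its version and any later step are not given there. Here each array was scaled to 1 trimmed mean (2% cut at each end), values under the 10th percentile (4.10) were set to it, log2 was taken, and probe sets under the 40th percentile of mean signal (25.8) were left out. Printed signals are the deposited ones.

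A model of 3 groups on all 8 arrays was fitted with limma 3.58.1 in R 4.3.3 (lmFit, contrasts.fit, eBayes with trend), two-sided, with Benjamini-Hochberg adjustment over the 5244 probe sets. The procedure was tested on simulated data. Signal, not counted molecules, sets the precision, and the number of arrays limits it. Where a gene had several probe sets, the brightest by mean log2 signal stands for it. Of 8740 probe sets, 7006 carried 1 gene symbol in the platform annotation, 308 several and 1426 none, and 6985 of the 7006 were found in the RefSeq gene table.

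Members and gene lists were chosen with earlier results of these data known. Named genes are the 20 largest rises and falls among called probe sets with 1 symbol and no overlap, called list members, and 40 genes chosen by name. Gene lists are described by counts and medians, with no set test. Pool numbers were not used as pairs, because the labels give no pairing. Deviations of same-numbered control and walked pools correlated at -0.01 and -0.01. With 2 walked pools the walked deviations mirror each other, so this check cannot exclude pairing. Alternatives covered the scaling, floor, filter, variance trend, arrays in the fit, a block on pool number, a minimum fold, the choice of probe sets, and each array left out.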

Additional observations from a re-analysis of the deposited data

How the results depend on the processing

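No called probe set of a named gene changed direction under any alternative run, while 4 uncalled ones near 0, of Col3a1, Myc, Pdk4 and Slc2a4, did. Fewer probe sets were called, against 476 (234 rises, 242 falls), without a brightness filter (216, 124 and 92), without the variance trend (211, 129 and 82) and against a minimum change of 1.5-fold (43, 40 and 3). By gene, against 264 (118 and 146), those 3 settings gave 118 (63 and 55), 114 (64 and 50) and 22 (21 and 1). With only plainly named probe sets, which leaves fewer to test, rises were 137, and 461 and 927 probe sets lay wholly above or below control, against 811 and 1446 on the rescaled signals. The pool number as a replicate block, although the labels do not say that the numbers mark pairs, gave 251 probe sets with 84 falls, and 124 genes (77 and 47). Leaving out 1 array gave 104 to 504 probe sets (66 to 257 rises, 38 to 247 falls), 52 to 269 genes (32 to 127 and 20 to 142), and 811 to 1255 and 1446 to 2143 probe sets wholly above or below control, the highest where 1 walked pool was left to compare. The lower counts were without control pool 2 or 3 or a walked pool. The cause of the lower counts without the trend was not tested.

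Quantile normalization called 445 probe sets, 389 of them among the 476, and turned the split of rises and falls in the brightest 1311 probe sets from 130 and 117 to 116 and 140. Named genes had 129 called probe sets, of which 37 stayed called whichever array was left out and 28 under every setting. Dim probe sets called least, 15 rises and 22 falls among the 1311 with the lowest signal. Quantile normalization also gave list counts of 4 rises and 2 falls for oxidative stress, 1 and 5 for fatty acid, 1 and 3 for amino acid, 3 and 2 for stretch and 2 and 2 for ion channel genes.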

Other observations

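Of the genes called by their brightest probe set, 51 that rose and 114 that fell belonged to none of the gene lists, and the groups below were chosen after their values were seen, so they carry no test as groups. Genes whose products bind RNA or work in transcription went both ways. Hnrnpa3 and Hnrnpu, which package nuclear RNA, rose by 1.40 and 0.68 on the log2 scale. Matr3, a nuclear matrix protein that binds RNA, rose from 47.0 ± 6.36 (SD, n = 3) to 116 ± 0.85 (SD, n = 2) (log2 fold change 1.31 ± 0.24 SE). Polr2a, the largest subunit of RNA polymerase II, read 21.2, 41.2 and 48.3 against 128 and 96.1 (log2 fold change 1.68 ± 0.41 SE, adjusted p = 0.0301), Top1, which relaxes DNA ahead of the polymerase, rose by 1.05, and Snrpd3 of the spliceosome by 0.99. The walked pools lay above the control pools for each of these. In the other direction, the RNA-binding Cirbp and Ddx39b had -1.03 and -0.64, the splicing kinase Clk3 -0.78 and the transcription factors Usf1 and Nr2f6 -0.74 and -0.88. Ddx3x, an RNA helicase, and Bclaf1 had 0.81 and 0.91, and Pcna, the sliding clamp of DNA replication, 1.15.

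Genes of the cytoskeleton outside the lists also went both ways. The tubulins Tuba4a and Tubb5 had -0.77 and -0.65, and the actin regulators Pfn1, Tmsb4x and Cap2 -0.65, -0.55 and -0.96. Myl9, a myosin light chain of smooth muscle and other cells, read 441, 469 and 807 against 237 and 178 (log2 fold change -1.42 ± 0.35 SE, adjusted p = 0.0329), while the summed signal of smooth muscle markers overlapped between the groups. The actin-bundling Pls3 rose by 2.02, Capza1, which caps actin filaments, by 0.89, Nckap1 by 0.98 and the GTPase Cdc42, which remodels actin, by 1.45. Dync1h1, the heavy chain of dynein, had -0.82. Smpx, a small protein of stretched muscle, rose by 0.70. All of these were called with limma at an adjusted p under 0.05, and the part of other cell types in them was not tested.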
